A study of Mus musculus with 7 samples.

Results

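The transcripts of 10 chemokine genes were followed in the brain of FAD mice, a transgenic model of familial Alzheimer's disease, and of wild-type mice. The genes were Ccl3, Ccl4, Ccl5, Ccl6, Ccl9, Ccl12, Ccl2, Cxcl16, Cx3cl1 and Cxcl10, picked by name out of the 20859 genes counted. Bulk mcSCRB-seq, in which each well of tissue RNA gets its own barcode at the 3′ end of its transcripts, was run on hippocampus and cortex of 24 mice in 47 wells, spread over 7 library pools. The groups were FAD mice with the treatment label CD38 (FAD CD38, 7 mice), FAD mice given IgG (FAD IgG, 7 mice) and wild-type mice given PBS (WT, 9 mice, of which 8 gave a hippocampus). The study asked what targeting CD38, a surface enzyme that consumes NAD, does in this model. The labels name neither the transgenes, the promoter that drives them, the age, the CD38 agent nor its dose. The FAD mice received that agent or IgG and the WT mice PBS, so genotype and injection cannot be told apart in any comparison with WT. For 1 further mouse, in pool 8, the treatment is CD38 in the sample sheet but IgG in the names of its wells, and it entered no comparison.

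Chemokines are small secreted proteins that bind receptors on leukocytes and microglia and direct their migration. Most CC and CXC members are released as soluble ligands, whereas Cxcl16 and Cx3cl1 are made as membrane-anchored proteins that metalloproteases can shed. In the brain Cx3cl1 is made chiefly by neurons and its receptor Cx3cr1 sits on microglia, while Ccl3, Ccl4 and several other CC ligands are made by activated microglia.

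Total counts per well ran between 1270918 and 5101368, so 1 count is worth less than 1 CPM (the count scaled to the well's total count) and members of a few CPM rest on few counts. The dissections carried their region's markers, with 5 hippocampal markers summing to between 174 and 415 CPM in hippocampus and between 12.2 and 25.7 CPM in cortex. Transcripts of Cd38 itself did not differ between FAD CD38 and FAD IgG mice past the threshold, with a log2 difference of -0.06 in hippocampus and -0.12 in cortex (edgeR, adjusted p = 1.0 in both). Some wells stood apart. The hippocampal wells of FAD CD38 replicate 4 and FAD IgG replicate 4 had choroid plexus markers at 15564 and 8803 CPM, and 6 wells had a ribosomal RNA share over 10%, the highest being 20.7% in the hippocampus of WT replicate 9. Without such wells the counts of called members given below changed only through Ccl9 and Cx3cl1, as given with those genes.

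Of the 10 genes, 8 lie on chromosome 11, where Ccl5, Ccl9, Ccl6, Ccl3 and Ccl4 follow each other as neighbouring protein-coding genes. RefSeq has windows upstream of the transcription start for 6 of the 10 in build GRCm38.p6. Those of Ccl3, Ccl6, Ccl12 and Cxcl10 are shown, each as the 250 bases before the start in the gene's own direction, because the first 3 genes were called in both FAD groups and both regions and the last is a textbook interferon target. They come from chr11:83649379-83649628 (minus strand), chr11:83593088-83593337 (minus strand), chr11:82101595-82101844 (plus strand) and chr5:92348890-92349139 (minus strand). Capitals mark matches on either strand to the NF-kB consensus, to the interferon response element GAAANNGAAA, to the PU.1 core AGGAAGT or to the TATA box TATAAA.
Ccl3: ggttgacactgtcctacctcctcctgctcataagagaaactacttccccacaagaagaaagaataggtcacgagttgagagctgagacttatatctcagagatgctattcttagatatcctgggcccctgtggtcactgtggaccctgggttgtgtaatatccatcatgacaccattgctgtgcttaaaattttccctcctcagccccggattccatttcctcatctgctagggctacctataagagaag
Ccl6: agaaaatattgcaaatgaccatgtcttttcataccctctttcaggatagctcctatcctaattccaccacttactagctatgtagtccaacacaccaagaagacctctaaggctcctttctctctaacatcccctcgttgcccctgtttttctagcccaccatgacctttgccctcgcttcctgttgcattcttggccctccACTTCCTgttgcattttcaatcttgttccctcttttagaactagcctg
Ccl12: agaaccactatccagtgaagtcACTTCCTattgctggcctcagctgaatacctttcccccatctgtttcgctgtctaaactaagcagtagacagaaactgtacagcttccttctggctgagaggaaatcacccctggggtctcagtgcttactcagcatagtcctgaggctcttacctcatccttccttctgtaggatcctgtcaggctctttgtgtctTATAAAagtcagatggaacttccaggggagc
Cxcl10: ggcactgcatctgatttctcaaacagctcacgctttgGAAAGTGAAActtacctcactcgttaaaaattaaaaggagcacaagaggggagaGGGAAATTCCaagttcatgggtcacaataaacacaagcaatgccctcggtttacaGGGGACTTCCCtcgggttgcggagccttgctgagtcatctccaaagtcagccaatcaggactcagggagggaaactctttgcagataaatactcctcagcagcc
The Ccl3 window held none of the 4 motifs. The Ccl6 and Ccl12 windows each held a PU.1 core on the opposite strand, and the Ccl12 window also a TATA box that starts 31 bases before the transcription start. The Cxcl10 window held an interferon response element and NF-kB matches at 2 places, where those of the place nearer the start overlap each other. Among the windows not shown, that of Ccl9 held an NF-kB match and TATAAA, and that of Cx3cl1 held TATAAA. Of all 6 windows, 2 held the NF-kB consensus, 1 the interferon response element, 2 the PU.1 core and 3 TATAAA. Over 32851 mouse windows of 300 bases, 8.46% held the NF-kB consensus, 3.44% the interferon response element, 9.35% the PU.1 core and 13.6% TATAAA. These matches describe the letters only.

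Ccl3, Ccl4, Ccl6, Ccl12, Ccl5 and Cxcl16 were higher in both FAD groups than in WT mice, in hippocampus and in cortex, by 1.63 to 5.52 on the log2 scale. By edgeR's quasi-likelihood test with Benjamini-Hochberg adjustment over all genes, 7 of the 8 members tested were called higher in FAD CD38 than in WT hippocampus and 6 of 8 in cortex, where 4.56% of all 12728 and 3.3% of all 12968 genes tested were. In FAD IgG mice 6 of 8 were called higher in each region, where 4.48% of all genes were in hippocampus and 3.34% in cortex. No member was called lower in any of these 4 comparisons, where 0.754%, 1.23%, 0.416% and 0.532% of all genes were (FAD CD38 and then FAD IgG against WT, hippocampus before cortex in each). Between FAD CD38 and FAD IgG mice no member was called in either region.
Of all 10 members, 6 had every FAD CD38 hippocampus above every WT hippocampus, and 5 were apart in this way in cortex, where 1.74% and 1.3% of 18082 genes were. For FAD IgG mice these counts were 6 and 5 as well, where 2.4% and 1.5% of genes were. No member lay wholly below WT, where 0.094% and 0.0608% of genes did for FAD CD38 and 0.0387% and 0.0277% for FAD IgG mice, hippocampus before cortex. Between FAD CD38 and FAD IgG wells no member was apart in either direction, where 0.00553% of genes were higher and 0.0277% lower in hippocampus, and 0.0111% higher and 0.0332% lower in cortex. Over the mean of both regions 7 of 8 members were called higher in FAD CD38 and 6 of 8 in FAD IgG than in WT mice and 0 lower (limma), where 5.76% and 5.63% of 13447 genes were called higher and 2.7% and 1.67% lower. Ccl9 was among the 7, and its adjusted p was 0.104 without pool 10.
A gene was tested if enough wells reached 3.37 CPM in hippocampus or 3.02 CPM in cortex, and Ccl2 and Cxcl10 did not. The filter needed 7 wells, and 7 members in hippocampus and 6 in cortex had fewer WT wells than that at that level (5 and 4 had none), so they entered the test with the help of their FAD wells, which makes these counts a description and not support. Both comparisons with WT use the same WT mice. A bulk level cannot tell fewer cells of a type from less RNA per cell.

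**Figure D1:**
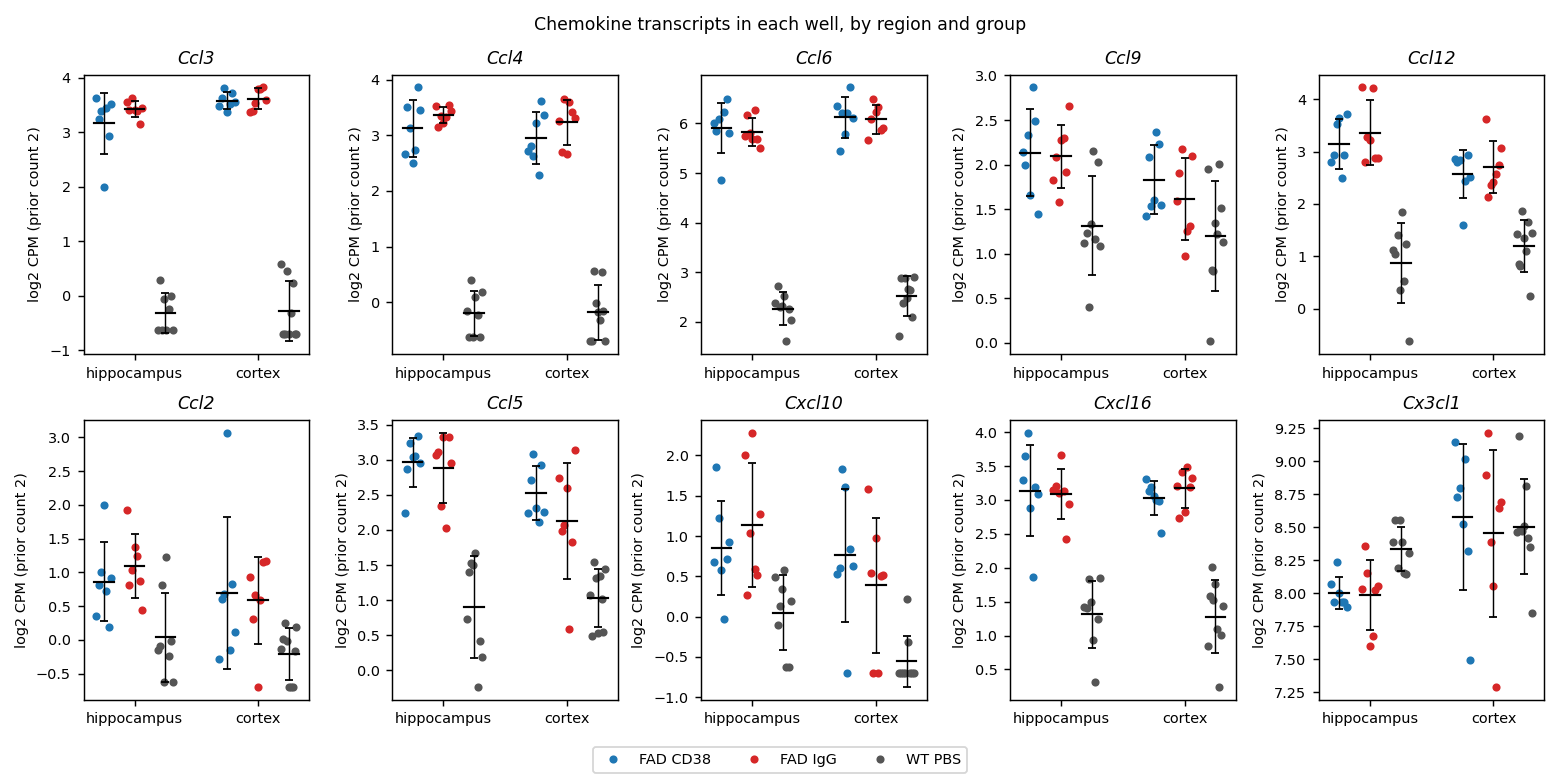
Level of each of the 10 chemokines in every well (log2 CPM with a prior count of 2), for FAD CD38, FAD IgG and WT mice in hippocampus and cortex. Each point is 1 mouse and bars are the mean ± SD. In each region the FAD points of Ccl3, Ccl4, Ccl6 and Cxcl16 lie above all WT points of that region, and FAD CD38 and FAD IgG points overlap for all 10 genes.

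Ccl3 and Ccl4, the inflammatory ligands MIP-1α and MIP-1β, were close to absent in WT brain and present in each FAD well. In hippocampus the lowest, median and highest level of Ccl3 was 2.80, 10.1 and 12.04 CPM in FAD CD38 mice, 8.39, 10.0 and 12.2 CPM in FAD IgG mice, and 0, 0.105 and 0.573 CPM in WT mice. In cortex Ccl3 had 9.48, 11.5 and 14.2 CPM in FAD CD38 mice, 10.4, 11.5 and 13.9 CPM in FAD IgG mice, and 0, 0 and 0.855 CPM in WT mice. No FAD well overlapped a WT well, and the lowest FAD hippocampus was that of FAD CD38 replicate 4, the shallowest hippocampal well and the one richest in choroid plexus markers. The FAD IgG wells together held 236 Ccl3 counts in hippocampus and 267 in cortex, against 5 and 8 in the WT wells. The log2 fold change of FAD IgG over WT was 5.52 ± 0.39 (SE) in hippocampus (95% interval 4.71 to 6.34, adjusted p = 6.3e-09) and 5.32 ± 0.34 in cortex (adjusted p = 4.39e-11). Taken as a plain ratio of summed counts per total, Ccl3 was 56.8 times higher in FAD IgG hippocampus, with a 95% interval of 24.0 to 177 that covers counting error only.

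Ccl4 had 4.20, 8.32 and 13.5 CPM (lowest, median, highest) in FAD CD38 hippocampus, 8.14, 9.96 and 11.2 CPM in FAD IgG hippocampus, and 0, 0.239 and 0.675 CPM in WT hippocampus. Its cortical levels were 4.54, 6.47 and 11.6 CPM in FAD CD38 mice, 5.50, 9.61 and 12.2 CPM in FAD IgG mice, and 0, 0.260 and 0.818 CPM in WT mice. FAD and WT wells did not overlap in either region, while the FAD CD38 wells reached both lower and, in hippocampus, higher than the FAD IgG wells. The fold change of FAD IgG over WT was 5.11 ± 0.37 in hippocampus (adjusted p = 9.24e-09) and 4.69 ± 0.32 in cortex (adjusted p = 1.37e-10). Ccl3 and Ccl4 rose in all 6 pools that hold both FAD IgG and WT wells of a region, by 2.78 to 4.49 for Ccl3 and 2.84 to 4.16 for Ccl4 in log2 CPM over both regions. RefSeq lists the annotated spans of Ccl3 and Ccl4 as overlapping, and the sources used here do not say whether counting used strand, so reads shared between them cannot be told apart.

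Ccl5 (RANTES), a ligand made by T cells and by activated glia, was called in both regions as well. In hippocampus its lowest, median and highest levels were 4.23, 6.83 and 9.16 CPM in FAD CD38 mice, 3.45, 7.95 and 9.59 CPM in FAD IgG mice, and 0.21, 1.54 and 2.48 CPM in WT mice. In cortex they were 3.76, 4.31 and 8.30 CPM in FAD CD38 mice, 0.787, 3.61 and 8.20 CPM in FAD IgG mice, and 0.780, 1.42 and 2.18 CPM in WT mice. FAD and WT groups were apart in hippocampus, whereas in cortex the single well of FAD IgG replicate 5, with 1 Ccl5 count at the lowest depth of all wells, lay among the WT wells. The fold change of FAD IgG over WT was 2.33 ± 0.36 in hippocampus (adjusted p = 0.000168) and 1.68 ± 0.33 in cortex (adjusted p = 0.00146). The 7 measured markers of T and NK cells summed to 2.32 to 9.16 CPM in FAD CD38, 5.10 to 11.2 CPM in FAD IgG and 1.24 to 4.13 CPM in WT hippocampi. Among the defining markers Cd3g had 22 counts over the FAD CD38, 32 over the FAD IgG and 6 over the WT hippocampi, and Cd3d 18, 30 and 3. Cd4 was at 0 in all FAD CD38 hippocampi, and none of the markers had enough counts to be tested there. In cortex the markers summed to 41.7 to 70.1 CPM in FAD CD38, 37.9 to 73.9 CPM in FAD IgG and 55.8 to 70.8 CPM in WT mice, most of it Trbc2. Of those tested in cortex, Cd4 stood at -0.90 in FAD CD38 (adjusted p = 0.221) and -1.02 in FAD IgG mice (adjusted p = 0.222), and Trbc2 at -0.22 (adjusted p = 0.402) and -0.26 (adjusted p = 0.405). Both were far lower in hippocampus than in cortex in each group, at -4.80 for Trbc2 and -5.35 for Cd4 in WT mice on the log2 scale. The cortical sum thus follows region also in WT mice, and whether these transcripts come from T cells there was not tested. The part of these markers in the Ccl5 result was not tested.

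Ccl6 and Ccl9 are rodent chemokines of one subfamily that signal through Ccr1, and they parted in these brains. Ccl6 had 23.8, 65.8 and 86.7 CPM (lowest, median, highest) in FAD CD38 hippocampus, 45.2, 54.4 and 76.7 CPM in FAD IgG hippocampus, and 2.52, 4.43 and 6.01 CPM in WT hippocampus. In cortex it had 43.9, 77.7 and 105 CPM in FAD CD38 mice, 53.7, 70.8 and 90.6 CPM in FAD IgG mice, and 2.56, 5.26 and 7.12 CPM in WT mice. Even the lowest FAD well, again the hippocampus of FAD CD38 replicate 4, lay above the highest WT well. Ccl6 rose by 3.73 ± 0.22 in FAD IgG hippocampus (95% interval 3.27 to 4.19, adjusted p = 5.78e-10) and by 3.78 ± 0.16 in cortex (3.45 to 4.10, adjusted p = 1.67e-14). In WT mice it was well counted, with 115 counts over the hippocampi and 154 over the cortices, so this fold does not rest on values near 0. A long non-coding gene, E230016K23Rik, overlaps Ccl6 in RefSeq.

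Ccl9 had 2.01, 3.91 and 6.64 CPM in FAD CD38 hippocampus, 2.43, 3.62 and 5.75 CPM in FAD IgG hippocampus, and 0.675, 1.70 and 3.72 CPM in WT hippocampus. Its cortical levels were 2.09, 2.42 and 4.84 CPM in FAD CD38 mice, 1.29, 2.55 and 3.94 CPM in FAD IgG mice, and 0.419, 1.82 and 3.15 CPM in WT mice. All groups overlapped in both regions. In hippocampus the fold change over WT passed the threshold in FAD CD38 mice (1.0 ± 0.27, adjusted p = 0.0344) and missed it in FAD IgG mice (0.92 ± 0.28, adjusted p = 0.0634). The difference between the FAD groups themselves was 0.08, with an interval of -0.49 to 0.64. The FAD CD38 call was also lost when any 1 of pools 5, 6, 7, 8, 9 or 10 was left out (adjusted p 0.0776 to 0.153) without the filter on low counts (0.0608) and without the choroid-rich wells (0.0569), whereas FAD IgG passed without those wells (0.0441), without pool 11 (0.0155), with sample quality weights (0.00737), with the ribosomal RNA covariate (0.0371) and with the conflicting mouse counted as FAD IgG (0.0384). In cortex the fold change was 0.67 (adjusted p = 0.283) in FAD CD38 and 0.40 (adjusted p = 0.645) in FAD IgG mice. Ccl6 and Ccl9 are related in sequence, and how reads that fit both were assigned is not given in the sources used here.

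Ccl12 and Ccl2, ligands of the monocyte receptor Ccr2, were both scarce. Ccl12 had 4.98, 7.19 and 12.1 CPM (lowest, median, highest) in FAD CD38 hippocampus, 6.41, 8.14 and 18.6 CPM in FAD IgG hippocampus, and 0, 1.52 and 2.89 CPM in WT hippocampus. In cortex it had 2.37, 6.47 and 6.93 CPM in FAD CD38 mice, 4.05, 4.72 and 12.6 CPM in FAD IgG mice, and 0.572, 1.82 and 2.98 CPM in WT mice. The groups were apart except in cortex, where FAD CD38 replicate 4, with 5 counts, fell below the highest WT well. Ccl12 rose by 2.90 ± 0.38 in FAD IgG hippocampus (adjusted p = 2.18e-05) and by 1.84 ± 0.26 in cortex (adjusted p = 2.21e-05). The highest value in each region belonged to FAD IgG replicate 1, and 1 other hippocampus, of FAD IgG replicate 5, stood beside it at 18.1 CPM.

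Ccl2 (MCP-1) had 0.482, 1.14 and 2.80 CPM in FAD CD38 hippocampus, 0.718, 1.46 and 3.23 CPM in FAD IgG hippocampus, and 0, 0.277 and 1.65 CPM in WT hippocampus. In cortex it had 0.216, 0.924 and 7.58 CPM in FAD CD38 mice, 0, 0.985 and 1.64 CPM in FAD IgG mice, and 0, 0.286 and 0.546 CPM in WT mice. The groups overlapped in both regions, and the cortical maximum of 7.58 CPM is 1 well with 16 of the 28 Ccl2 counts of its group. It did not pass the filter on low counts. Fitted without the filter, its fold change of FAD CD38 over WT was 1.27 ± 0.55 in hippocampus (adjusted p = 0.277) and 2.64 ± 0.62 in cortex (adjusted p = 0.0072). That of FAD IgG over WT was 1.67 ± 0.51 in hippocampus (adjusted p = 0.0734) and 2.37 ± 0.68 in cortex (adjusted p = 0.0444). The ratio of summed counts in FAD CD38 cortex was 5.80, and 2.77 without the well of replicate 4 (12 against 7 counts, 95% counting interval 1.0 to 8.29). For FAD IgG the ratio was 3.52 in hippocampus (38 against 13 counts, 95% counting interval 1.83 to 7.20) and 4.52 in cortex (24 against 7 counts, 1.89 to 12.4). Ccl2 and Ccl12 are paralogs, so their counts carry the same doubt about shared reads as those of Ccl6 and Ccl9.

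Cxcl10, an interferon-induced ligand of Cxcr3, a receptor on T cells, had no count in 7 of 9 WT cortices. Its hippocampal levels were 0.332, 0.977 and 3.03 CPM in FAD CD38 mice, 0.557, 1.46 and 3.92 CPM in FAD IgG mice, and 0, 0.431 and 0.826 CPM in WT mice. In cortex they were 0, 0.924 and 3.11 CPM in FAD CD38 mice, 0, 0.820 and 2.55 CPM in FAD IgG mice, and 0, 0 and 0.520 CPM in WT mice. FAD and WT wells overlapped in both regions. Without the filter the hippocampal fold change of FAD IgG over WT was 2.20 ± 0.51 (adjusted p = 0.00869) and that of FAD CD38 over WT was 1.57 ± 0.54 (adjusted p = 0.13). In cortex the ratio of summed counts was 12.6 for FAD CD38 (26 against 3 counts, counting interval 3.85 to 64.9) and 11.4 for FAD IgG (26 against 3 counts, 3.5 to 59.0), with adjusted p of 0.00835 and 0.0194 in the fit without the filter. FAD IgG replicate 1 held 13 of its group's 26 counts, and without that well the ratio was 7.34 (2.02 to 40.1). The annotated span of Art3 overlaps Cxcl10, and reads from it could be counted with it.

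Cxcl16, a membrane-anchored ligand of Cxcr6 that also acts as a scavenger receptor, had 2.99, 8.19 and 15.6 CPM (lowest, median, highest) in FAD CD38 hippocampus, 4.79, 8.26 and 11.2 CPM in FAD IgG hippocampus, and 0.629, 2.07 and 2.92 CPM in WT hippocampus. In cortex it had 4.59, 7.86 and 9.70 CPM in FAD CD38 mice, 6.15, 9.21 and 10.2 CPM in FAD IgG mice, and 0.526, 1.92 and 3.27 CPM in WT mice. FAD wells were above WT wells without overlap in both regions, though in hippocampus the lowest FAD well, at 2.99 CPM, lay close to the highest WT well, at 2.92 CPM. Cxcl16 rose by 2.26 ± 0.31 in FAD IgG hippocampus (adjusted p = 3.88e-05) and by 2.18 ± 0.25 in cortex (adjusted p = 1.03e-06). Zmynd15 overlaps it in RefSeq.

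Cx3cl1 (fractalkine), the neuronal ligand of microglial Cx3cr1, was not called in either FAD group. In hippocampus it had 213, 243 and 308 CPM in FAD CD38 mice, 180, 268 and 332 CPM in FAD IgG mice, and 265, 313 and 393 CPM in WT mice. In cortex it had 161, 429 and 589 CPM in FAD CD38 mice, 139, 408 and 638 CPM in FAD IgG mice, and 211, 340 and 615 CPM in WT mice. The groups overlapped in both regions, and the cortical wells spread widely within each group. The hippocampal fold change was -0.32 ± 0.10 in FAD CD38 (95% interval -0.53 to -0.11, adjusted p = 0.0809) and -0.33 ± 0.11 in FAD IgG mice (-0.55 to -0.11, adjusted p = 0.0898), neither past the threshold. Within pools FAD IgG hippocampi were below WT in 6 of 6 pools and FAD CD38 hippocampi in 7 of 7. Under DESeq2 both passed, with adjusted p of 0.00841 for FAD CD38 and 0.00981 for FAD IgG, as they did without the wells of high ribosomal RNA share (0.00202 and 0.0427). Both also passed with limma's sample quality weights (0.00503 and 0.01935) and with the ribosomal RNA covariate in edgeR (0.00878 and 0.0153). With the conflicting mouse counted in the group compared, FAD CD38 (0.033) and FAD IgG (0.0286) passed. Without the choroid-rich wells FAD CD38 passed (0.0354). Under the other alternatives neither was called. In cortex the fold change was 0.06 (-0.36 to 0.48) in FAD CD38 and -0.15 (-0.59 to 0.30) in FAD IgG mice. The neuronal markers, 5 in number, summed to 2340 to 2760 CPM in FAD CD38, 2194 to 2869 CPM in FAD IgG and 2504 to 2972 CPM in WT hippocampi. By edgeR 0 of the 5 were called in FAD IgG against WT, where 4.48% of all genes were called higher and 0.416% lower in hippocampus. At such shares 0 of 5 says little about these markers. Their part in the Cx3cl1 values was not tested.

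Between FAD CD38 and FAD IgG mice no shift of any chemokine was detectable. Of the 8 members tested against FAD IgG, 0 were called in hippocampus and 0 in cortex by edgeR, 0 had an unadjusted p under 0.05 in either region, and DESeq2 and limma with sample weights gave 0 of each as well. The background was the same, 0 of 12728 and 0 of 12968 genes, which is 0% in each. The intervals say how large a difference these mice could have hidden. For Ccl6, the best counted of the induced members, the difference of FAD CD38 minus FAD IgG was 0.11 in hippocampus (95% interval -0.29 to 0.50) and 0.01 in cortex (-0.27 to 0.29). For Ccl3 it was -0.19 (-0.69 to 0.32) and -0.09 (-0.52 to 0.34), and for Ccl4 -0.24 (-0.75 to 0.27) and -0.28 (-0.72 to 0.17), hippocampus before cortex. Within pools, the FAD CD38 well was lower in 5 of 6 pools for Ccl4 in each region and for Ccl3 in cortex, and higher in 5 of 6 for Ccl6 in hippocampus. Ccl12 differed by -0.30 (-0.98 to 0.38) in hippocampus and -0.20 (-0.68 to 0.27) in cortex, and Ccl5 by 0.02 (-0.64 to 0.68) and 0.11 (-0.49 to 0.71). Cxcl16 differed by -0.00 (-0.45 to 0.45) and -0.15 (-0.59 to 0.30), Ccl9 by 0.08 (-0.49 to 0.64) and 0.27 (-0.43 to 0.98), and Cx3cl1 by 0.01 (-0.21 to 0.24) and 0.21 (-0.26 to 0.67). No interval of the 8 members tested reached a 2-fold change (1 on the log2 scale) in either region, with -0.98 and 0.98 as the outermost bounds. Over the mean of both regions (limma, with the mouse as a block), the largest difference was -0.30 for Ccl12 (-0.77 to 0.18). Ccl2 and Cxcl10, fitted without the filter, left wider intervals, of -1.40 to 0.60 and -1.58 to 0.33 in hippocampus and of -0.87 to 1.42 and -1.46 to 1.56 in cortex.

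**Figure D2:**
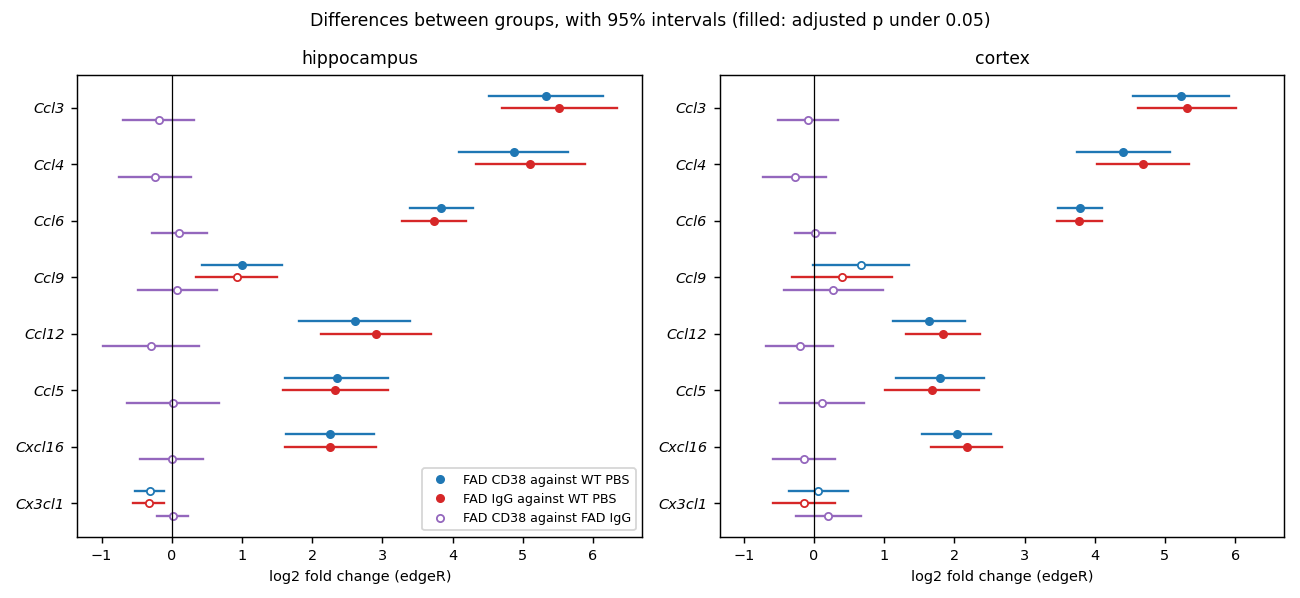
Log2 fold change of the 8 tested members with its 95% interval (edgeR), in hippocampus on the left and cortex on the right, for FAD CD38 against WT, FAD IgG against WT and FAD CD38 against FAD IgG. Filled points have an adjusted p under 0.05; the FAD CD38 against FAD IgG intervals all include 0, while Ccl3 lies above 5 in both comparisons with WT.

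Against WT, the FAD CD38 group gave fold changes of 5.33, 4.87, 3.84, 2.61, 2.35 and 2.26 in hippocampus for Ccl3, Ccl4, Ccl6, Ccl12, Ccl5 and Cxcl16 in this order, each called by edgeR, with adjusted p between 2.32e-10 and 0.000136. In cortex the values were 5.23, 4.41, 3.79, 1.63, 1.79 and 2.03, with adjusted p between 1.06e-14 and 0.000303. These sit beside the FAD IgG values above as the same WT mice serve both.

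With each mouse as its own block, edgeR called Cx3cl1 lower in hippocampus than in cortex of FAD CD38 mice (-0.60 ± 0.14, adjusted p = 0.00206), while Ccl12 stood at 0.50 (adjusted p = 0.131) and Ccl5 at 0.43 (adjusted p = 0.204). In FAD IgG mice it called Cx3cl1 lower (-0.49 ± 0.14, adjusted p = 0.0118) and Ccl12 (0.65 ± 0.22, adjusted p = 0.0276) and Ccl5 (0.70 ± 0.23, adjusted p = 0.028) higher. No member was called in WT mice, where 0 had an unadjusted p under 0.05 and Cx3cl1 stood at -0.19 (adjusted p = 0.311). The share of all 13425 genes called higher in hippocampus was 10.6% in FAD CD38, 9.29% in FAD IgG and 14.7% in WT mice, and lower 11.4%, 10.5% and 13.2%. Of the 8 members, 0 were called higher and 1 lower in FAD CD38, and 2 higher and 1 lower in FAD IgG mice, too few to read against these shares. Without the mouse block only Cx3cl1 was called in FAD IgG mice, and Ccl12 (adjusted p = 0.0605) and Ccl5 (adjusted p = 0.125) were not.
Whether the FAD effect itself differed between regions was tested as an interaction with limma. For FAD IgG against WT, Ccl12 differed by 1.17 (hippocampus minus cortex, 95% interval 0.39 to 1.95, unadjusted p = 0.00399, adjusted p = 0.426) and Ccl5 by 0.98 (0.11 to 1.85, unadjusted p = 0.029, adjusted p = 0.675). Neither held after adjustment, and 0 of the 8 members were called in this or the other interactions, while 0.134% of 13447 genes were called higher and 0.0149% lower for FAD IgG against WT. For FAD CD38 against WT the same interaction was 0.95 for Ccl12 (adjusted p = 0.345) and -0.41 for Cx3cl1 (adjusted p = 0.454), while 0.0892% of genes were called higher and 0.0223% lower.
In order of median level, Ccl3 and Ccl6 were highest in FAD CD38 cortex, Ccl4, Ccl12, Ccl5, Cxcl10 and Ccl2 in FAD IgG hippocampus, Ccl9 in FAD CD38 hippocampus, Cxcl16 in FAD IgG cortex and Cx3cl1 in FAD CD38 cortex. In each of these the next group in the order overlapped with the first. The step without overlap between neighbours in the order was that between the lowest FAD group and the highest WT group, seen for Ccl3, Ccl4, Ccl6, Ccl12 and Cxcl16. For 2 of these a FAD group higher in the order still overlapped WT cortex. Ccl12 fell to 2.37 CPM in FAD CD38 cortex, where WT cortex reached 2.98 CPM. Cxcl16 fell to 2.99 CPM in FAD CD38 hippocampus, where WT cortex reached 3.27 CPM.

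**Figure D3:**
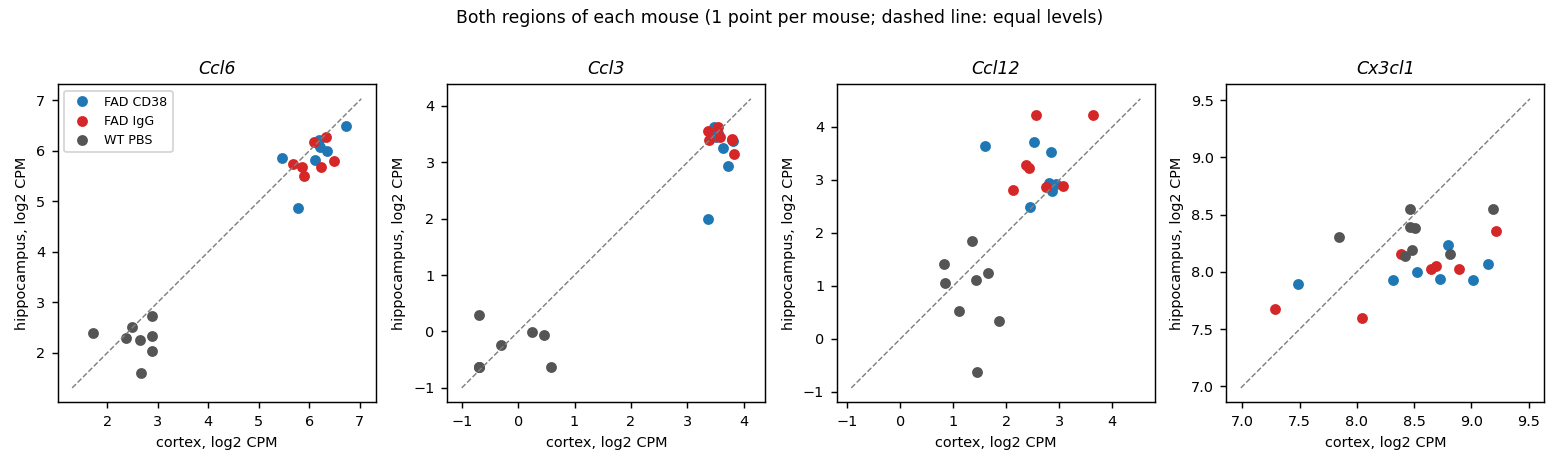
Hippocampus against cortex of each mouse (log2 CPM, prior count of 2) for Ccl6, Ccl3, Ccl12 and Cx3cl1, with 1 point per mouse and a dashed line of equal levels. FAD points form a group apart from WT for Ccl6 and Ccl3, 6 of 7 FAD IgG mice lie above the line for Ccl12, and 6 of 7 mice of each FAD group and 6 of 8 WT mice lie below it for Cx3cl1.

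Across the 14 FAD mice, with the treatment group's mean removed, members did not rise and fall together in a way that held. Of 45 pairs in hippocampus 0 passed, and of 45 in cortex 0, by permutation tests of Pearson's r and Spearman's rho. The adjustment was over the pairs of both regions together. The highest r was 0.702 in hippocampus and 0.617 in cortex, and 25 and 28 of the pairs had a positive r. Between hippocampus and cortex of the same mouse, Cx3cl1 had r = 0.695 (permutation p = 0.0067, adjusted over the 10 members 0.067) and rho = 0.732 (p = 0.00415, adjusted 0.0415), with r = 0.666 without the 2 mice farthest from the median. Ccl6 had r = 0.58 (permutation p = 0.0296, adjusted 0.0988) and rho = 0.648 (p = 0.0143, adjusted 0.0714), with r = 0.586 without the 2 farthest. Ccl5 had r = 0.599 (permutation p = 0.0238, adjusted 0.0988) and rho = 0.319 (p = 0.264, adjusted 0.528), with r = 0.387 without the 2 farthest. For Ccl3 r was 0.106 (permutation p = 0.753) and for Cxcl16 0.0117 (permutation p = 0.97). All 10 members had a positive r between regions, with a median of 0.483.

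Other genes of the chemokine system were taken from lists. Of 26 further ligands listed, 17 were in the table and 7 tested in each region. In hippocampus 1 of the 7 was higher, Cxcl5, a neutrophil-attracting ligand, in FAD CD38 (2.38, adjusted p = 0.000752) and in FAD IgG mice (2.11, adjusted p = 0.0022), with 89 counts over the FAD CD38, 125 over the FAD IgG and 28 over the WT hippocampi. The highest WT hippocampus had 2.47 CPM of Cxcl5, under the 3.37 CPM of the filter, so Cxcl5 entered the test through its FAD wells. In cortex 1 of the 7 was lower, Ccl27a, in FAD CD38 (-0.43, adjusted p = 0.0172) and in FAD IgG mice (-0.41, adjusted p = 0.0341). Of all genes tested, 4.56% and 4.48% were called higher in hippocampus of FAD CD38 and FAD IgG mice, and 1.23% and 0.532% lower in cortex. The median over the 7 was -0.13 in hippocampus and -0.11 in cortex for FAD IgG against WT, beside 0.00 and 0.01 over all genes tested.
Only 2 of 12 chemokine receptors in the table had enough counts to be tested. Cx3cr1, the receptor of Cx3cl1 and itself a microglial marker, had 49.7, 83.6 and 113 CPM (lowest, median, highest) in FAD CD38 hippocampus, 74.7, 97.0 and 111 CPM in FAD IgG hippocampus, and 35.0, 48.1 and 56.6 CPM in WT hippocampus. FAD IgG and WT wells did not overlap, and the lowest FAD CD38 value lay within the WT range. Cx3cr1 rose by 0.92 in FAD CD38 hippocampus (adjusted p = 2.32e-05) and by 1.04 in FAD IgG hippocampus (adjusted p = 7.82e-06). The atypical receptors Ackr1 and Ackr3 and the sheddases Adam10 and Adam17, which release Cx3cl1 and Cxcl16 from the membrane, were not called against WT in either region or FAD group by edgeR. The other atypical receptors had too few counts to be tested within a region, so this does not speak for them.

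Transcription factors and regulators upstream of chemokine genes were higher in part. Of 18 listed, 17 were in the table. In hippocampus 6 of 15 tested were called higher in FAD CD38 mice and 8 of 15 in FAD IgG mice, with a median log2 fold change of 0.73 and 0.95. In cortex 3 of 16 were called higher in FAD CD38 mice and 4 of 16 in FAD IgG mice, with a median of 0.44 and 0.56. Of all genes tested, 4.56% and 4.48% were called higher in hippocampus and 3.3% and 3.34% in cortex, FAD CD38 before FAD IgG. None of the list was called lower, where 0.754% and 0.416% of all genes were in hippocampus and 1.23% and 0.532% in cortex. The medians over all genes were between 0.00 and 0.01. Irf9, a subunit of the interferon-activated complex, rose by 1.40 in FAD CD38 hippocampus (adjusted p = 0.000438) and by 1.66 in FAD IgG hippocampus (adjusted p = 6.44e-05). Irf5 rose by 1.66 in FAD CD38 (adjusted p = 3.68e-05) and by 1.18 in FAD IgG hippocampus (adjusted p = 0.00228). Irf7 rose by 1.55 in FAD CD38 (adjusted p = 0.00255) and by 1.75 in FAD IgG hippocampus (adjusted p = 0.00074). Spi1, which encodes the myeloid factor PU.1, rose by 1.501 in FAD CD38 (adjusted p = 0.00154) and by 1.46 in FAD IgG hippocampus (adjusted p = 0.00224). The highest WT hippocampus had 3.15 CPM of Irf5 and 2.92 CPM of Irf7, under the 3.37 CPM of the filter. Such genes entered the test through their FAD wells, so the counts over this list are a description and not support. In FAD CD38 against FAD IgG, 0 genes of all 5 pathway lists were called by edgeR in either region, where the background was 0 genes as well.

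**Figure D4:**
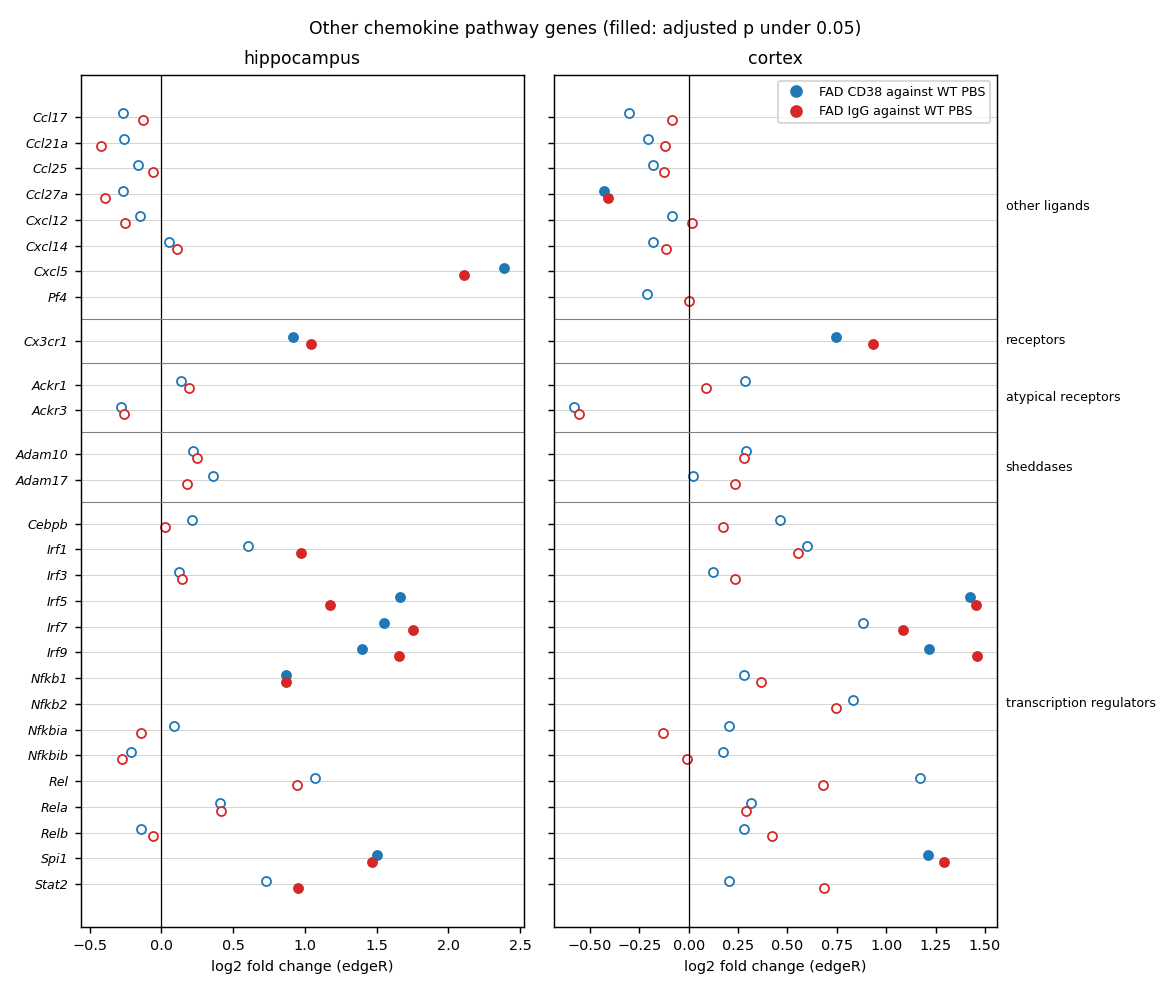
Log2 fold change over WT (edgeR) of tested genes in the lists of other ligands, receptors, atypical receptors, sheddases and transcription regulators, in hippocampus and cortex, with FAD CD38 above FAD IgG for each gene. Filled points have an adjusted p under 0.05. Cxcl5 is the filled ligand in hippocampus, and Irf5, Irf9 and Spi1 are filled for both groups in both regions.

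Microglial markers were higher in the same wells. The 7 markers summed to 290 to 467 CPM in FAD CD38, 374 to 524 CPM in FAD IgG and 140 to 219 CPM in WT hippocampi, and to 256 to 462, 345 to 469 and 171 to 240 CPM in cortex in that order, with no marker at 0 in any group. By edgeR 5 of 7 were called higher in FAD CD38 and 6 of 7 in FAD IgG hippocampus, where 4.56% and 4.48% of all genes were. In cortex 5 of 7 were called higher in each FAD group, where 3.3% and 3.34% of all genes were. Their median log2 fold change was 1.04 in FAD CD38 and 1.28 in FAD IgG hippocampus. In FAD IgG hippocampus Ccl3, Ccl4 and Ccl6 lay 4.25, 3.83 and 2.46 above that median, Ccl12, Ccl5 and Cxcl16 lay 1.63, 1.05 and 0.98 above it, and Ccl9 lay 0.35 below it (-0.35 as a difference). The sum of 5 astrocyte markers, Gfap among them, was also higher in FAD hippocampi. It ran from 746 to 1375 CPM in FAD CD38, 1147 to 1553 CPM in FAD IgG and 597 to 705 CPM in WT hippocampi. A sum does not show whether each marker was higher. The part of either cell type's markers in these results was not tested.
Border macrophage markers summed to 2.66 to 10.1, 3.23 to 9.64 and 2.41 to 9.88 CPM in FAD CD38, FAD IgG and WT hippocampi, and to 7.39 to 10.9, 8.65 to 11.5 and 4.47 to 10.1 CPM in the cortices. The measured monocyte markers Ccr2 and Ly6c2 summed to 1.40 to 9.64, 3.19 to 11.5 and 3.71 to 9.16 CPM in hippocampus and to 4.27 to 9.34, 5.51 to 11.1 and 5.52 to 12.3 CPM in cortex, in the same order of groups. The ranges of FAD and WT wells overlapped for both lists in both regions. The neutrophil markers S100a8 and S100a9 reached at most 1.04, 0.862 and 0.413 CPM in hippocampus and 2.77, 1.36 and 2.10 CPM in cortex. The part of these cells in the chemokine levels was not tested.

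Over 45 wells and 12467 genes, the genes whose level followed each member most closely were named by the root mean square difference of log2 CPM after centring each region. For Ccl3 these were Ccl6 (0.469) and Trem2 (0.528), and for Ccl4 Gfap (0.473) and Trem2 (0.485), where the median over all genes was 1.89 and 1.71. Ccl6 was closest to Lyz2 (0.421) and Itgax (0.443), markers of myeloid cells. Ccl12 was closest to Ifit3 (0.478) and Psmb8 (0.488), both interferon-induced genes. Ccl5 was closest to B2m (0.495) and H2-D1 (0.512), components of MHC class I. Cxcl16 was closest to Rac2 (0.443) and Ctsz (0.467), and Cx3cl1 to Ndrg3 (0.199) and Bag5 (0.2), where the median over all genes was 0.506. For Ccl9 the closest, Chd7 (0.454) and Scrg1 (0.463), lay closer to its own SD of 0.567, the spread of Ccl9 over the same wells. These distances describe wells that share groups and pools, and carry no test.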

How the data were processed

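Bulk mcSCRB-seq libraries from hippocampus and cortex were pooled by the submitters. The submitters' processing notes name bcl2fastq 2.17 and STAR 2.5.3a. The authors deposited whole-number counts for each gene symbol in each well. For the build, annotation, counter, strand setting and collapse of molecular identifiers, the answer is: not given in the sources used here. Counts may therefore not be molecules.

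Each deposited sample is a library pool with wells of several mice and groups. Genotype, treatment and region of a well came from the authors' deposited sample sheet and were compared with the well's name. The replicate is the mouse, numbered by mouse number within its group, so numbers do not pair mice across groups. The mouse with conflicting labels was left out of all main fits. Among wells of the same region and group with agreeing labels, none repeated another within sampling noise. Other pairs of wells were not compared.

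For each region 1 model held all 3 groups, which share the estimate of spread, with pool as an additive factor. It used the robust quasi-likelihood test of edgeR 4.0.16 (R 4.3.3) with TMM scaling, after filterByExpr by group (count of at least 10, total of at least 15). Tests were two-sided, and p-values were adjusted by Benjamini-Hochberg over all genes tested with a threshold of 0.05. The mean over regions and the interactions used limma 3.58.1 (voom, mouse as a correlated block, correlation 0.256). Hippocampus against cortex used edgeR with the mouse as a fixed block. Intervals are 95% intervals from the standard error. Ratios of summed counts have exact 95% binomial intervals, which cover counting error only. Correlations used 100000 permutations. The code was tested on simulated counts. Sequences are RefSeq's (GRCm38.p6).

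The members and lists were chosen with earlier results of these data known, so no list has a test of its own. The genes named are the 10 members, up to 4 called genes of smallest p in each pathway list, the 2 genes nearest to each member and the markers. Alternatives were DESeq2 1.42.0, RLE factors, no filter, a mean of at least 10 counts, no pool term, only the 2 groups compared, voom with sample quality weights, ribosomal RNA share as a covariate, the conflicting mouse counted in either FAD group, and each pool left out in turn. Fits without the wells of high ribosomal RNA share, of many choroid plexus transcripts or of lowest depth, and count ratios of Ccl2 and Cxcl10 without the FAD well of most counts, were chosen after seeing the data. Dispersion was 0.23 in hippocampus and 0.197 in cortex (square root of the common value). The results of some genes in the pathway lists are not reported here by name, while the counts over the lists include them.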

Additional observations from a re-analysis of the deposited data

Results flagged for a closer look

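Of 60 groups of wells, 3 held a well far from the others by Dixon's test at 95%, where chance flags about 1 group in 20. For Ccl2 both flagged wells came from FAD CD38 replicate 4. Its cortex had 7.58 CPM (16 counts), with the next well of the group at 1.16 CPM, and its hippocampus had 2.80 CPM, which rests on 4 counts, with the next well at 1.39 CPM. The hippocampal well is also the one with the most choroid plexus transcripts. For Cxcl10 the cortex of WT replicate 5 had 0.520 CPM, which is 2 counts, where the next WT well had 0.202 CPM.

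The mouse of pool 8 that the sample sheet calls CD38 and the well name IgG entered no comparison between groups. It stood above every WT well for 8 members in each region. In hippocampus it had 44.3 CPM of Ccl6, 8.05 of Ccl3, 6.90 of Ccl4, 24.7 of Ccl12, 9.78 of Ccl5, 10.3 of Cxcl16, 3.45 of Ccl2 and 5.17 of Cxcl10. In cortex it had 63.6 CPM of Ccl6, 8.45 of Ccl3, 7.12 of Ccl4, 7.78 of Ccl12, 5.34 of Ccl5, 9.12 of Cxcl16, 1.33 of Ccl2 and 1.33 of Cxcl10. Both labels make it a FAD mouse, and its hippocampal Ccl12, Cxcl10, Ccl2 and Ccl5 were higher, and its cortical Ccl3 lower, than those of each FAD mouse with agreeing labels.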

How the results depend on the processing

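Of the counts of called members and of correlations, 172 values under the alternatives stayed within 1.5 times the main one, 3 were higher and 2 lower. With only the 2 groups compared, 4 members were called in FAD CD38 against WT hippocampus, where 7 were in the fit of all groups, because 5 rather than 8 passed the filter on counts. Hippocampus against cortex in FAD IgG mice gave 1 called member without the mouse block and 3 with it. With pool means removed as well, 1 pair of members passed in hippocampus, 1 in cortex and 1 member between regions of the same mouse, against 0 of each otherwise; the permutation p is too small there, as removing 7 pool means from 14 mice leaves few degrees of freedom. Of single genes, 1359 values stayed, 17 gained and 11 lost the call, and 0 reversed. Those that gained or lost it were Ccl9 and Cx3cl1 in hippocampus, Ccl9 over the mean of both regions, and Ccl12 and Ccl5 between regions without the mouse block. A member that an alternative left untested, as with only the 2 groups compared, has no value in this tally and is not counted as lost. Leaving out each pool in turn kept every count of called members within 1.5 times its value. In FAD CD38 against FAD IgG all alternatives gave 0 called members; without pool 11, 1 member in cortex, Cx3cl1, had an unadjusted p under 0.05. Hippocampus and cortex were paired by mouse. Between treatment groups, which hold different mice, no paired analysis was possible because replicate numbers only name mice. Depth limits Ccl2 and Cxcl10, which have a few counts per well. Counts over all genes depended more on the setting. In hippocampus 580 genes were called higher and 96 lower in FAD CD38 and 570 and 53 in FAD IgG than in WT mice, against 1282 and 865, and 955 and 410, with sample quality weights, 1060 and 500, and 796 and 228, with the ribosomal RNA share as a covariate, and 993 and 1006, and 739 and 382, once the wells with a ribosomal RNA share over 10% were left out. With only the 2 groups compared, FAD CD38 gave 354 and 20. In cortex the covariate gave 880 and 564 for FAD CD38 and 592 and 238 for FAD IgG, against 428 and 159, and 433 and 69. Without pool 6 or pool 8, FAD CD38 in cortex gave 331 and 51 or 333 and 32. Without pool 8 the mean of both regions gave 1003 and 748 for FAD CD38, against 775 and 363.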
